A study of Homo sapiens with 97 samples.

Results

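The transcripts of the translation initiation factors (eIFs) and elongation factors (eEFs) were followed through an atlas of RNA localization in HEK293T cells. Members were the gene rows whose symbol starts with EIF1 to EIF6, EEF1 or EEF2, leaving out the EIF2AK kinases, EEF2K, antisense genes and pseudogenes. Of 60675 gene rows, 155 had such a symbol, and 58 remained as members after 90 pseudogenes, 4 EIF2AK kinases, EEF2K and 2 antisense genes were left out. HEK293T is an immortalized human embryonic kidney line, and each construct was a stable HEK293T line expressing APEX2, a peroxidase, fused to a targeting sequence or protein. Cells were given biotin-phenol and then hydrogen peroxide, on which APEX2 marks nearby RNA with biotin (labelled libraries), or were treated in the same way without peroxide (unlabelled libraries), and enriched RNA was sequenced.

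The 9 constructs were NLS in the nucleus, NIK in the nucleolus, LMA at the nuclear lamina, NucPore at the nuclear pore, NES in the cytosol, ERM on the cytosolic face of the endoplasmic reticulum (ER) membrane, KDEL in the ER lumen, OMM on the outer mitochondrial membrane and MITO in the mitochondrial matrix. Each had 2 labelled and 2 unlabelled poly(A)-selected libraries. MITO also had 2 labelled and 2 unlabelled libraries of total RNA. The OMM and NES lines were also treated with cycloheximide, puromycin or the uncoupler CCCP, with 2 labelled and 2 unlabelled libraries per drug and construct, or with the microtubule poison nocodazole for 3, 6, 9 or 30 min or 2 hr, with 2 labelled libraries per time and construct and unlabelled libraries at 3 and 30 min. Drug doses were not given in the sources used here. A further 4 libraries came from nuclear and cytosol fractions of HEK293T cells, 2 of each. The labels call the 2 libraries of a group biological replicates but do not say whether they came from separate cultures, nor whether a line is 1 clone, so p-values measure the spread between these libraries only.

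Initiation begins when eIF2 brings the initiator tRNA to the small ribosomal subunit, with eIF1, eIF1A and the many-subunit eIF3 in place on it, while eIF2B recharges eIF2 with GTP. The eIF4 group binds the cap (EIF4E), unwinds the leader (the helicases EIF4A1 and EIF4A2 with EIF4B and EIF4H) and bridges both to eIF3 (the scaffold EIF4G1). EIF5 then triggers GTP hydrolysis at the start codon, EIF5B joins the large subunit, and the elongation factors eEF1 and eEF2 deliver tRNAs and move the ribosome. Most of these proteins work in the cytosol and on the ER, and their own mRNAs are mostly translated by free cytosolic ribosomes. Several of the mRNAs begin with a C followed by a run of pyrimidines (C or T), the 5′ terminal oligopyrimidine (TOP) tract that the protein LARP1 binds and that couples their translation to mTOR.

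The transcription starts are shown first because the tract is the sequence feature by which TOP mRNAs are defined, and most matched members lacked it. RefSeq start windows on GRCh38.p14 were matched for 48 of 58 members. A C at the start followed by at least 4 pyrimidines was found at an annotated start of 13 of these 48, or 27.1%, against 1404 of 27305 genes, or 5.14%. The lines give 12 bases before the annotated start and the first 18 transcribed bases, 5′ to 3′ on the strand of the gene, with the tract in capitals. EEF1A1, EEF1B2, EEF2 and EIF4B are textbook TOP mRNAs, and EIF3F, EIF3K and EIF4A2 are shown because results below turn on them.
EEF1A1 (chr6:73521015-73521044, minus strand): gccgtgaacgttCTTTTTCgcaacgggttt
EEF1B2, the second of 2 starts (chr2:206159883-206159912, plus strand): gtctcttcgggtCCTTTTTCCTCTCTTCag
EEF2 (chr19:3985446-3985475, minus strand): gacgtcagcgttCTCTTCCgccgtcgtcgc
EIF4B (chr12:53006444-53006473, plus strand): cctcatccgggtCTTTTgcgttctctttcc
EIF3F (chr11:7987325-7987354, plus strand): cgcttccgcctcCTTCTTTCTCgacaagat
EIF3K (chr19:38619176-38619205, plus strand): cgtttccaccacCTCTTCCTgttcccgtcc
EIF4A2 (chr3:186783565-186783594, plus strand): gggcgccgctgtCTTTTCagtcgggcgctg
The next 3 starts have no such tract and belong to the start-codon factors EIF5 and EIF1 and to the helicase EIF4A1, whose protein closely resembles that of EIF4A2.
EIF5, the first of 2 starts (chr14:103334225-103334254, plus strand): gcggcgttgttcagtcagagcgagaacatt
EIF1 (chr17:41688873-41688902, plus strand): caccgcccctctgccccagtcactgagccg
EIF4A1 (chr17:7572813-7572842, plus strand): cgggcactccgccctagtttctaaggatca
The match is to letters at an annotated start. It does not show where transcription began in these cells. EEF1A2, EEF1D, EIF2S2, EIF3A, EIF3CL, EIF3E, EIF3G, EIF3H, EIF3L and EIF4EBP1 had no entry.

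The library totals, in mega counts (M), were 9.33 to 76.71 M in the constructs, 22.75 to 55.76 M with drugs, 15.47 to 33.97 M with nocodazole, 34.96 to 44.97 M in the fractions and at least 2.84 M in the MITO table. In 7 of 36 construct libraries, 3 of 24 drug libraries, 6 of 28 nocodazole libraries and 1 of 9 MITO libraries, genes that average 5 CPM or more (CPM, counts scaled to a library size common to all libraries) lacked any count in more than 2% of cases, here called low complexity. Landmark transcripts were each higher in the place of their label. The nuclear RNA MALAT1 was higher in NLS labelling (log2 fold change 3.65 ± 0.52 SE) and in the nuclear fraction (4.52). Mitochondrially encoded MT-CO1 was higher in MITO labelling (4.43), and SCD, an ER membrane enzyme, in ERM labelling (2.76). SCD was not confined to that place. It had 997 and 880 CPM in the nuclear fraction against 496 and 583 CPM in the cytosol fraction. In OMM its raw counts were 70915 and 112117 in labelled and 27769 and 24849 in unlabelled libraries. In KDEL, inside the ER, SCD was not called. Of 6 genes listed as present in HEK293T, VIM (209 to 989.7 CPM), NEFL (28.1 to 99.8), NEFM (42.0 to 253) and KRT18 (10.2 to 71.2) had counts in every construct library, while KRT8 (0 to 43.5) and PAX2 (0 to 5.64) did not. Of 5 markers of other cells, HBB had no count, CD3E stayed at or under 0.119 CPM, ALB and PTPRC reached 3.85 and 5.73 CPM, and the fibroblast collagen COL1A1 ranged from 0.0530 to 30.7 CPM.

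The members took 0.930% to 2.02% of all counts of a construct library, with a median of 1.78%. Per kilobase of annotated exon, the elongation factor EEF2, which moves the ribosome along the mRNA, had the highest mean level over the 18 unlabelled construct libraries, at 803 ± 210 CPM per kb (SD, n = 18). EEF1A1, which delivers aminoacyl-tRNA, had 367 ± 48.6 CPM per kb, and the eIF3 subunit EIF3I had 351 ± 50.8. Those last levels differed by less than their spread. EIF5A, which helps ribosomes through stalling peptides, EIF1, which guards start-codon choice, and EIF4G2, a scaffold that does not bind the cap protein, followed at 262 ± 51.5, 187 ± 23.6 and 164 ± 28.0 CPM per kb. The cap-binding protein EIF4E had 2.94 ± 1.29 CPM per kb, while its inhibitor EIF4EBP1 had 93.2 ± 33.0. The divisor was all annotated exonic bases, 14067 for EIF4E and 1073 for EIF4EBP1, so much of that gap comes from the annotation. Every comparison of genes per kb here has this limit, that of eIF2B with eIF2 included. The 5 eIF2B subunits ran from 7.82 (EIF2B5) to 28.8 CPM per kb (EIF2B1), below the 3 subunits of their substrate eIF2, at 22.5 (EIF2S1), 61.9 (EIF2S2) and 91.1 CPM per kb (EIF2S3), except that EIF2B1 lay above EIF2S1.

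How reads were assigned limits some members. EEF1G, a well-known abundant subunit of eEF1B, had a mean of only 0.251 CPM, and 99.9% of its annotated exonic bases lie inside another annotated gene on the same strand, MIR3654, which itself had 1.99 CPM. EIF4EBP3 had 0.0226 CPM and shares 73.4% of its bases with the readthrough gene ANKHD1-EIF4EBP3. EIF4E1B, a form known from egg cells, had 0.00211 CPM and entered no test. For EIF4A1 and EIF3L, 48.6% and 41.1% of exonic bases lie in other genes. Pseudogene rows held a median of 48.7% of the counts that EEF1A1 and its 32 pseudogenes had together, 60.5% for EIF4A1 with 12 and 57.1% for EEF1B2 with 5, so the levels of these genes depend on how near-identical reads were placed. EIF3C with EIF3CL, EIF5A with EIF5AL1, and EIF2S3 with EIF2S3L are near-identical copies as well, and their values are uncertain for the same reason.

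The nuclear and cytosol fractions divided the members. The transcripts of 41 of 56 members tested were lower in the nuclear than in the cytosol fraction, and 5 were higher (edgeR, adjusted p under 0.05). Among all 19115 genes tested, 27.9% were lower and 34.2% higher. Among the 11409 genes that average 5 CPM or more, which include 54 members, 4437 were lower and 2826 higher. The median log2 fold change was -1.05 over the members, 0.11 over all genes tested and -0.26 over these well-expressed genes. The fractions are shares of each library, so a lower share in one is a higher share in the other. Leaving out any 1 of the 4 libraries gave 40 to 45 called members.

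Among the eIF3 subunits, the WD-repeat subunit EIF3I fell most. It had 907 and 979 CPM in the cytosol libraries and 144 and 136 CPM in the nuclear libraries (log2 fold change -2.75 ± 0.17 SE, edgeR adjusted p = 3.3e-07). The groups are far apart. EIF3K, a small peripheral subunit, had 338 and 455 against 135 and 112 CPM (-1.68 ± 0.19 SE, adjusted p = 1.3e-05). The large core subunit EIF3A went the other way, with 379 and 469 CPM in the cytosol and 726 and 660.3 CPM in the nucleus (0.71 ± 0.18 SE, adjusted p = 0.0035), and adjusted p = 0.11 without cytosol library 1. In all, 9 of 14 eIF3 members fell and 1 rose.

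All 6 elongation factor members tested fell. EEF1A1 had 4254 and 4968 CPM in the cytosol and 1627 and 1339 CPM in the nuclear fraction (log2 fold change -1.64 ± 0.21 SE, edgeR adjusted p = 3.0e-05). EEF1B2 changed by -1.38 ± 0.18 SE and EEF2 by -0.87 ± 0.20 SE. The 4 eIF1 members fell too, from -1.52 (EIF1) to -0.59 (EIF1AD), as did 5 of 6 eIF2 members, 3 of 5 eIF2B subunits and 5 of 6 members of the eIF5 and eIF6 group. The eIF2 members counted here and below were EIF2S1, EIF2S2, EIF2S3, EIF2S3L, EIF2A and EIF2D. This group is wider than the eIF2 complex, of which EIF2A and EIF2D are not subunits. Of 9 members on a list of textbook TOP mRNAs, 8 were tested and 8 fell, with a median of -1.45, and of the 48 other members 33 fell, with a median of -1.02.

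The eIF4 group was divided, with 9 of 15 members lower and 4 higher. The inhibitors of the cap-binding protein fell: EIF4EBP1 by 1.92 and EIF4EBP2 by 1.65 on the log2 scale. EIF4E3, a relative of the cap-binding protein, had 37.3 and 76.6 against 11.5 and 11.7 CPM (-2.29 ± 0.31 SE). Among the higher members, EIF4A2 had 193 and 207 CPM in the cytosol and 587 and 509.8 CPM in the nucleus (log2 fold change 1.45 ± 0.17 SE, edgeR adjusted p = 1.4e-05). The scaffold EIF4G1 had 323 and 381 against 658 and 939 CPM (1.18 ± 0.20 SE, adjusted p = 0.00024), and its paralog EIF4G3 rose by 0.60 ± 0.16 SE, with adjusted p = 0.065 without nuclear library 2. The other higher member, EIF4EBP3, stood near 0 CPM, with 3 and 1 counts in the cytosol and 19 and 19 in the nucleus. EIF4A1 did not pass the test (-0.13 ± 0.16 SE, adjusted p = 0.51).

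Coding length and the fraction ratio went together. Over the 54 members with a mean of at least 5 CPM, Spearman's rho between the longest annotated coding length and the log2 fold change was 0.61, and over 10339 genes it was 0.43. The 27 shorter members, split at the median of 1170 bases, had a median log2 fold change of -1.31 and the 27 longer members -0.61. Genes share these 4 libraries and are not independent, so the rho is a description.

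**Figure D1:**
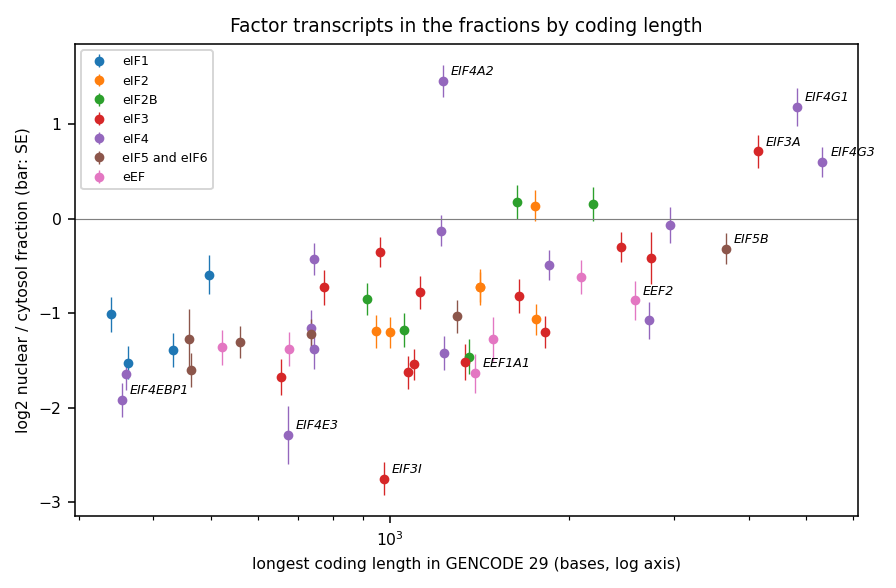
Log2 fold change between the nuclear and cytosol fractions (vertical axis) against the longest coding length in bases on a log axis (horizontal), 1 point per member with a mean of at least 5 CPM, n = 54. Short members such as EIF3I lie lowest at -2.75, while EIF4A2 at 1.45 and EIF4G1 at 1.18 lie highest.

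Across the 9 constructs, labelled libraries were set against the unlabelled libraries of the same construct. Of 57 members tested, 33 were lower in labelled than in unlabelled libraries of at least 1 construct, 7 were higher in at least 1, 4 of these were both, and 21 were called in none. EIF3K and EIF4A3, the helicase of the exon junction complex, were lower in 6 constructs, and EEF1A1, EEF1B2 and EIF1 in 5. Counts are shares of a library, so a lower value means a smaller part of the marked RNA and not an absence of the transcript.

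**Figure D2:**
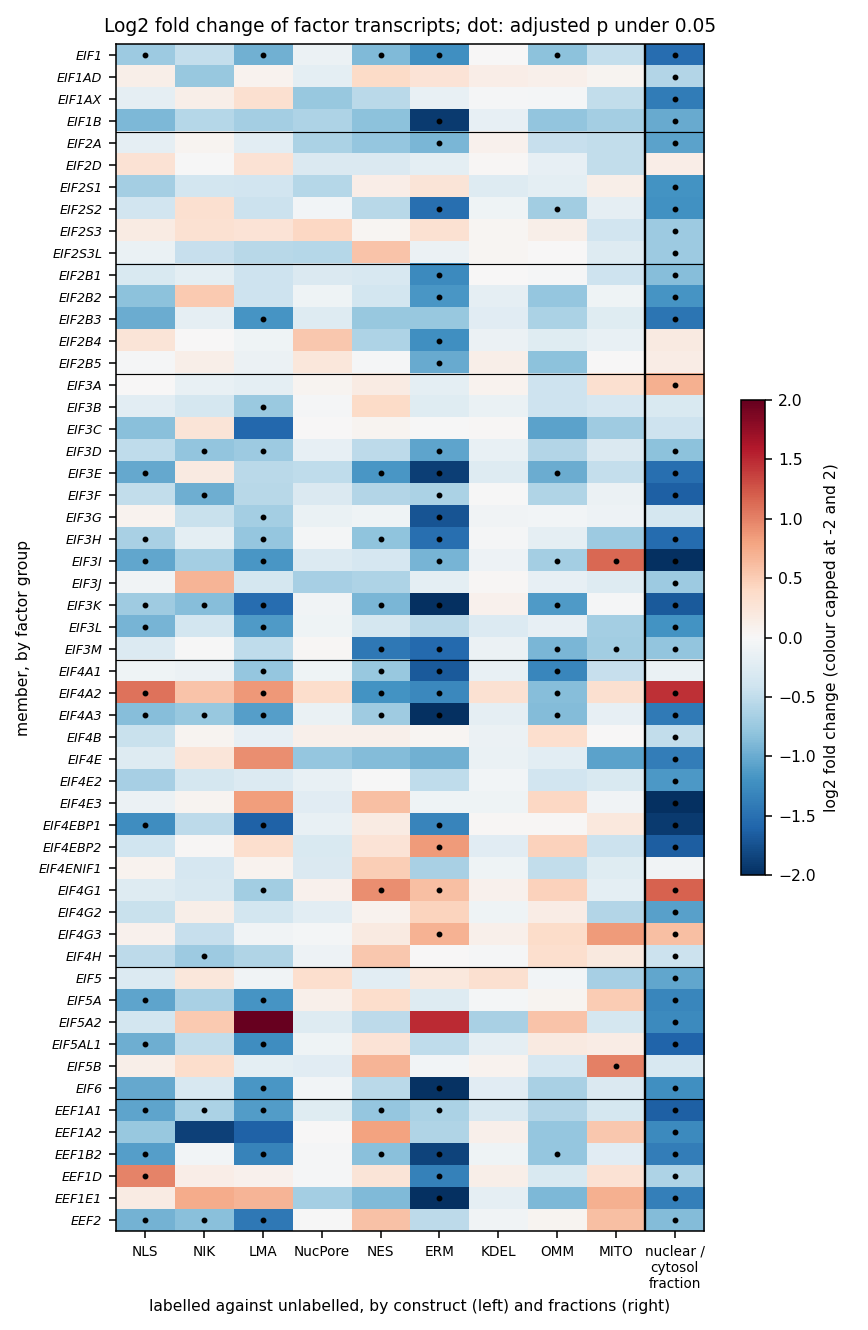
Log2 fold change of the 54 members with a mean of at least 5 CPM (rows) in labelled against unlabelled libraries of the 9 constructs and in the nuclear against the cytosol fraction (columns). Colour is capped at 2 in either direction and a dot marks an adjusted p under 0.05. ERM and LMA hold many members called lower, KDEL and NucPore none, and EIF4A2 is called higher in NLS, LMA and the nuclear fraction.

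The members made up a smaller part of the RNA marked at the ER membrane, which was not particular to this place. They took 1.44% and 1.28% of counts in ERM labelled and 1.75% and 1.78% in ERM unlabelled libraries. In LMA the shares were 1.29% and 1.31% against 1.985% and 1.999%. Both labelled libraries were also below both unlabelled ones in NLS, NIK, KDEL, OMM and MITO. In NucPore they overlapped, and in NES they were above, at 1.78% and 1.81% against 1.71% and 1.74%. In ERM labelling 25 of 57 members were lower and 3 higher, where 7.64% of all genes tested were lower and 5.23% higher. Among the 11852 well-expressed genes, 1648 were lower and 1183 higher. The median log2 fold change was -0.63 over the members and 0.00 over all genes tested. Leaving out any 1 library of ERM gave 21 to 24 called members. GAPDH, a cytosolic enzyme, moved by -1.56 ± 0.19 SE and SCD by 2.76 ± 0.15 SE in the same libraries.

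Of the eIF3 subunits 8 of 14 were lower at the ER membrane. EIF3K had 42.7 and 42.1 CPM in labelled and 178 and 211 CPM in unlabelled libraries (log2 fold change -2.20 ± 0.20 SE, edgeR adjusted p = 7.9e-10). EIF3E had 112 and 162 against 539 and 467 CPM (-1.88 ± 0.19 SE). Neither pair overlaps. EIF3G, EIF3M and EIF3H fell by 1.73, 1.55 and 1.51 on the log2 scale, and EIF3D, EIF3I and EIF3F by 1.06, 0.93 and 0.63. EIF3A changed by -0.19 ± 0.17 SE (adjusted p = 0.6).

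Members of other groups were lower as well. EEF1E1, a scaffold protein of the tRNA synthetase complex, had 4.82 and 18.5 against 44.4 and 52.0 CPM (-2.04 ± 0.44 SE, adjusted p = 0.00084), with adjusted p = 0.16 without ERM labelled 1. EEF1B2, which recharges eEF1A, had 44.8 and 65.2 against 182 and 214 CPM (-1.85 ± 0.22 SE). EEF1D and EEF1A1 were the other lower elongation factors, at -1.35 and -0.63, while EEF2, the most abundant member, changed by -0.53 ± 0.24 SE (adjusted p = 0.16). Among the start-codon factors EIF1B fell by 1.92 and EIF1 by 1.23. Of the eIF2B subunits 4 of 5 were lower, with EIF2B1 at -1.28, and of 6 eIF2 members EIF2S2 (-1.50) and EIF2A (-0.92) were. EIF6, which keeps the large subunit from joining, had 15 and 37.1 against 107 and 97.6 CPM (-1.97 ± 0.33 SE). ERM labelled 1, which held the lower labelled value of EEF1E1, EEF1B2 and EIF6, was of low complexity. In it 4.90% of well-expressed genes lacked a count.

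In the eIF4 group the 3 helicases were lower: EIF4A3 at -1.99, EIF4A1 at -1.68 and EIF4A2 at -1.29. The 3 members higher at the ER membrane were all of this group. EIF4G1 had 1004 and 951 CPM in labelled and 634 and 653 CPM in unlabelled libraries (0.60 ± 0.15 SE, adjusted p = 0.0035), and its call was lost when any 1 of the 4 libraries was left out, with adjusted p of 0.06 to 0.2. EIF4G3 (0.70 ± 0.23 SE) and EIF4EBP2 (0.86 ± 0.22 SE) each lost theirs without ERM labelled 1, at adjusted p = 0.28 and 0.067. EIF4G3 lost it also without ERM unlabelled 2, at adjusted p = 0.13.

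Setting ERM labelling against NES labelling asks whether the ER membrane differs from the cytosol itself. In this test of the difference 4 of 57 members were lower in ERM and 0 higher, where 1.66% of all genes were lower and 2.16% higher. They were EIF3G (-1.64 ± 0.31 SE, adjusted p = 0.00097), EEF1D (-1.61 ± 0.32 SE), EIF3K (-1.29 ± 0.28 SE) and EIF4A3 (-1.28 ± 0.27 SE). The count was 15 without ERM labelled 2, 7 without NES labelled 1, 9 without NES labelled 2, 9 without ERM unlabelled 1 and 13 without NES unlabelled 2, and 0 in a fit of only these libraries. EIF4A3 had adjusted p = 0.066 without ERM labelled 1.

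In the nuclear constructs several elongation factors and eIF3 subunits were lower in labelled libraries. In NLS labelling 13 of 57 members were lower and 2 higher, where 2.45% of all genes were lower and 2.79% higher, and the count called was 8 without NLS labelled 2. In LMA labelling 19 were lower and 1 higher, against 4.03% and 3.68% of all genes, and the count was 13 without LMA labelled 1. In NIK labelling 7 were lower and 0 higher, against 3.92% and 1.27%, and the count was 11 without NIK labelled 1, 11 without NIK labelled 2 and 4 without NIK unlabelled 2. The median over members was -0.38 in NLS and -0.51 in LMA, while the well-expressed genes had 0.01 in NLS. A fit of only the libraries of a construct called 28 members in NLS and 0 in NIK, and with the low-complexity libraries of the table left out, except the least affected where a group had no other, 18 were called in NIK. Both NIK labelled libraries were of low complexity, with 5.96% and 2.88% of these genes lacking a count, and labelled 2 was the one kept, so every NIK labelled value rests on such libraries.

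EEF1A1 had 1051 and 950.0 CPM in NLS labelled and 1949.5 and 2213 CPM in NLS unlabelled libraries (log2 fold change -1.06 ± 0.19 SE, edgeR adjusted p = 0.00033). It changed by -1.12 ± 0.19 SE in LMA and -0.64 ± 0.19 SE in NIK. EEF2 had 1571 and 1891 CPM in LMA labelled and 4569 and 4745 CPM in LMA unlabelled libraries (-1.43 ± 0.24 SE), and fell by 0.95 in NLS and 0.84 in NIK. EEF1B2 fell by 1.10 in NLS and 1.34 in LMA. The call for EEF2 in NIK was lost without NIK unlabelled 2 (adjusted p = 0.07).

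EIF4EBP1, the main repressor of the cap-binding protein, fell most in both NLS (-1.23 ± 0.34 SE, adjusted p = 0.066 without NLS labelled 2) and LMA (-1.62 ± 0.34 SE). EIF3K had 85.0 and 82.5 against 235 and 246 CPM in LMA (-1.52 ± 0.20 SE). EIF3I fell by 1.03 in NLS and 1.16 in LMA, and EIF5A by 1.05 and 1.17. In all, 5 of 14 eIF3 subunits fell in NLS and 7 in LMA. In NIK the largest fall was that of EIF3F (-0.97 ± 0.21 SE), followed by EIF3K (-0.85 ± 0.20 SE). Without NIK unlabelled 2 the call for EIF3F was lost (adjusted p = 0.066), and without NIK labelled 1 that for EIF3K (adjusted p = 0.079). No eIF2 member was called in NLS, LMA or NIK, and of the eIF2B subunits only EIF2B3, in LMA (-1.18 ± 0.38 SE, adjusted p = 0.25 without LMA labelled 1 and 0.09 without LMA unlabelled 1).

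The 2 members higher in NLS labelling were EIF4A2 and EEF1D. EEF1D, a subunit of the exchange factor eEF1B, had 682 and 600.2 CPM in labelled and 326 and 321 CPM in unlabelled libraries (log2 fold change 0.99 ± 0.23 SE, edgeR adjusted p = 0.006). At the ER membrane the same gene was lower, at 87.3 and 110.1 against 219 and 284 CPM. The rows of its 4 pseudogenes held a median of 5.15% of the counts of gene and pseudogenes together.

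EIF4A2 changed in opposite directions between places. It had 350.4 and 400.3 CPM in NLS labelled and 190.1 and 164 CPM in NLS unlabelled libraries (log2 fold change 1.08 ± 0.22 SE, edgeR adjusted p = 0.0018). In LMA it had 349 and 308 against 177 and 183 CPM (0.87 ± 0.22 SE, adjusted p = 0.052 without LMA labelled 1). As shares of the library totals, labelled libraries were also above unlabelled ones in NIK, NucPore and KDEL, without a call. In KDEL the raw counts were 7352 and 12939 in labelled libraries (totals 25.62 and 34.54 M). They were 7100 and 12213 in unlabelled ones (26.92 and 46.48 M). EIF4A2 was thus called higher in NLS and LMA only, while a larger labelled share was not particular to them. In the cytosol (NES) it had 199 and 156 against 475 and 335 CPM (-1.19 ± 0.22 SE), and at the ER membrane 154 and 152 against 379 and 365 CPM (-1.29 ± 0.22 SE). In OMM it fell by 0.85, with adjusted p = 0.22 without OMM labelled 2.

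The difference between NLS and NES labelling was 2.27 ± 0.31 SE for EIF4A2 (adjusted p = 2.1e-05). Its unlabelled level differed between the lines, at 158 to 190.1 CPM in NLS, NIK and LMA and 335 to 475 CPM in NES, ERM and OMM. Unlabelled NucPore libraries, of another nuclear construct, had 376 and 261 CPM. KDEL had 256 and 255 CPM and MITO 185 and 282 CPM, so the levels did not divide nuclear from other lines, and the part of this in the result was not tested. The annotation places SNORA63, SNORA81, SNORA4 and SNORD2 inside EIF4A2, and 10.5% of its exonic bases lie in other genes.

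EIF4G1 was called higher in labelled libraries of the cytosol and the ER membrane and lower in those of the nuclear lamina. It had 1142 and 1273 CPM in NES labelled and 574 and 688 CPM in NES unlabelled libraries (log2 fold change 0.94 ± 0.15 SE, edgeR adjusted p = 0.00012). In LMA it had 451 and 475 against 771 and 736 CPM (-0.70 ± 0.15 SE). By share of the library totals, EIF4G1 was also higher in both labelled libraries of OMM and of KDEL, without a call. In OMM the raw counts were 18835 and 28877 in labelled libraries (totals 24.73 and 36.66 M). They were 19659 and 18830 in unlabelled ones (31.25 and 34.6 M). NLS labelling against NES labelling gave -1.19 ± 0.21 SE for EIF4G1 (edgeR adjusted p = 0.00048), while its share was higher in the nuclear than in the cytosol fraction (1.18). The proximity labelling and the fractionation gave opposite signs for EIF4G1 and the same sign for EIF4A2. SCD, the ER landmark, was higher in the nuclear fraction too, at 997 and 880 against 496 and 583 CPM. Whether ER-bound RNA in that fraction has a part in the EIF4G1 values was not tested.

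**Figure D3:**
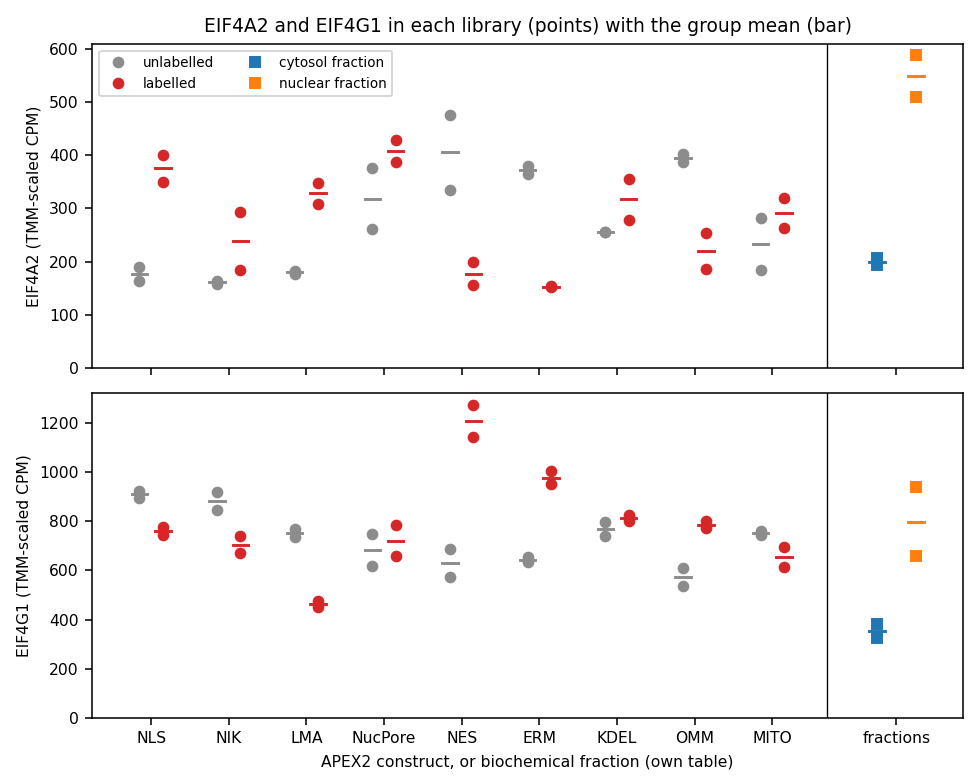
CPM of EIF4A2 and EIF4G1 in each labelled and unlabelled library of the constructs and in each fraction library (1 point per library, n = 2 per group). EIF4A2 was called higher in labelled libraries of NLS and LMA and lower in those of NES, ERM and OMM. It was not called in the other constructs. EIF4G1 was called higher in labelled libraries of NES and ERM and lower in those of LMA. Its OMM labelled points also lie above the unlabelled ones, without a call.

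In all, 2 of 57 members were higher and 4 lower in NLS than in NES labelling, where 1.36% and 0.944% of all genes were. The other higher member was the eIF3 subunit EIF3M (1.17 ± 0.25 SE), whose call was lost without NES labelled 2 (adjusted p = 0.18), NLS labelled 2 (0.065), NES unlabelled 1 (0.11) or NLS unlabelled 2 (0.051). Beside EIF4G1, the lower members were EEF2 (-1.54 ± 0.34 SE), EIF5A (-1.41 ± 0.34 SE) and EIF4H (-1.06 ± 0.29 SE). With low-complexity libraries left out 12 members were called.

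In the cytosol (NES), 10 of 57 members were lower in labelled libraries and 1, EIF4G1, was higher, where 2.47% of all genes were lower and 1.37% higher. The count called was 4 without NES labelled 2 and 7 without NES unlabelled 1, and 0 in a fit of only the NES libraries. EIF3M had 139.9 and 111 CPM in labelled and 388 and 289 CPM in unlabelled libraries (log2 fold change -1.43 ± 0.18 SE, edgeR adjusted p = 1.2e-05). EIF3E fell by 1.17, EIF3K by 0.91, EIF1 by 0.88 and EEF1B2 by 0.84. The last 3 lost their call without NES labelled 2, at adjusted p of 0.19 to 0.25. EEF1B2 and EIF3K lost it also without NES unlabelled 2, at adjusted p = 0.12 and 0.11.

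On the outer mitochondrial membrane, 10 of 57 members were lower in labelled libraries and 0 higher, against 1.97% and 2.99% of all genes, and the count was 3 without OMM labelled 2 and 6 without OMM unlabelled 2, and 3 in a fit of only the OMM libraries. EIF4A1 had 88.7 and 83.2 against 189 and 237 CPM (log2 fold change -1.31 ± 0.20 SE, edgeR adjusted p = 3.9e-05). EIF3K, EIF3E, EIF3M and EIF4A3 followed at -1.13, -0.98, -0.92 and -0.87. Without OMM labelled 2, EIF3M and EIF4A3 had adjusted p = 0.081 and 0.074. In the test of OMM against NES labelling 0 of 57 members were called by edgeR, where 1.62% of all genes were higher and 0.141% lower. At an unadjusted p under 0.05 there were 6, DESeq2 called 1, and the count was 1 without NES labelled 1, NES unlabelled 1 or OMM labelled 1, 5 without NES unlabelled 2 and 2 without OMM unlabelled 1.

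The mitochondrial matrix has a translation system of its own, served by other factors. In MITO labelling 2 of 57 members were higher and 1 lower, where 0.886% and 0.185% of all genes were, and the count was 6 without MITO labelled 1 and 5 without MITO unlabelled 2, and 0 in a fit of only the MITO libraries. EIF3I had 1367 and 2025 CPM in labelled and 885 and 652 CPM in unlabelled libraries (log2 fold change 1.14 ± 0.21 SE, edgeR adjusted p = 0.0012). EIF5B, the subunit-joining GTPase, had 593 and 626 against 340.1 and 263 CPM (1.01 ± 0.22 SE). EIF3M fell by 0.69, and leaving out any 1 of the 4 libraries ended that call.

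The MITO libraries of total RNA called 0 of 55 members by edgeR and 2 by DESeq2, while 9 had an unadjusted p under 0.05, where 0.563% of all genes were higher and 0.0134% lower. The count was 2 without MITO total RNA labelled 2. In them EIF3I had 505 and 322 CPM in labelled and 233 and 224 CPM in unlabelled libraries, and EIF5B 270.1 and 197 against 120.0 and 114 CPM. Both labelled libraries were above both unlabelled ones for each gene, as with poly(A) selection.

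KDEL and NucPore labelling called 0 members and 0% of all genes. At an unadjusted p under 0.05 there were 0 members in KDEL and 6 in NucPore. DESeq2 also called 0 and 0 members, and the NucPore count was 1 without NucPore unlabelled 2. EEF1A1, for example, had 1275 and 1994 CPM in NucPore labelled and 1965 and 1921 CPM in NucPore unlabelled libraries, so the labelled pair overlapped the unlabelled one.

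Members with and without the start tract were set side by side. In ERM labelling 8 of 13 members with a tract were lower and 11 of 34 without, with medians of -0.63 and -0.38. In NES labelling the counts were 5 of 13 and 3 of 34, with medians of -0.58 and -0.01. In OMM labelling they were 4 of 13 and 4 of 34, with medians of -0.58 and -0.21, in LMA 5 of 13 and 10 of 34, with -0.55 and -0.37, and in NLS 4 of 13 and 5 of 34, with -0.45 and -0.29. In NIK labelling 5 of 13 and 2 of 34 were lower, but the median was nearer 0 with a tract, at -0.06 against -0.19. In the nuclear fraction 11 of 13 with a tract and 23 of 33 without were lower, and the median was again nearer 0 with a tract, at -0.82 against -1.08. The median with a tract was also the higher one in the differences from NES labelling, at -0.11 against -0.56 for ERM, 0.09 against -0.34 for NLS and 0.07 against -0.17 for OMM. The exceptions with a tract include EIF4A2, which was higher in NLS, LMA and the nuclear fraction. The difference between these sets was not tested.

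The OMM and NES lines were given 3 drugs. Cycloheximide freezes elongating ribosomes on the mRNA, puromycin releases the nascent chain, and CCCP collapses the mitochondrial membrane potential. In cycloheximide, 6 of 57 members were higher and 6 lower in OMM than in NES labelling, where 9.32% of all genes were higher and 4.15% lower. The count was 7 without OMM cycloheximide labelled 1 and 22 without OMM cycloheximide unlabelled 1, and 4 in a fit of only these libraries. In puromycin and in CCCP 0 members were called by edgeR and 4 and 0 by DESeq2, while 15 and 6 had an unadjusted p under 0.05, and the puromycin count was 2 without NES puromycin unlabelled 1. In puromycin 0.103% of all genes were higher and 0.00933% lower, and in CCCP 0.00466% and 0%.

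With cycloheximide the lower members in OMM were EIF5B, EIF3A, EIF3B, EIF4G1, EIF2S3L and EIF4ENIF1. Of the members called in either direction, 8 were among the 27 with longer coding sequences and 4 among the 27 with shorter ones. EIF3A had 422 and 382 CPM in OMM labelled and 685 and 626 CPM in OMM unlabelled libraries, and 875 and 702 against 461 and 479 CPM in NES (difference -1.45 ± 0.20 SE, edgeR adjusted p = 4.3e-05). Labelled libraries were thus below unlabelled ones in OMM and above them in NES. EIF5B had 277 and 316 against 586 and 372 CPM in OMM and 567 and 709 against 269 and 316 CPM in NES (difference -1.82 ± 0.31 SE). EIF2S3L differed by -1.74 ± 0.37 SE, EIF3B by -1.30 ± 0.29 SE and EIF4G1 by -1.01 ± 0.20 SE. EIF4ENIF1, which shuttles EIF4E into the nucleus, differed by -1.25 ± 0.40 SE and lost its call without any 1 of 6 of the 8 libraries.

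The higher members in OMM were EEF1B2, EIF1AD, EIF2B4, EIF3G, EEF1A1 and EIF1. EEF1B2 had 50.7 and 48.7 CPM in NES labelled and 228 and 174 CPM in NES unlabelled libraries, and 137 and 138 against 138 and 166 CPM in OMM (difference 1.87 ± 0.34 SE, adjusted p = 0.00079). The difference came with a low level in NES labelling rather than a high level in OMM. EIF3G differed by 1.39 ± 0.32 SE, with adjusted p = 0.055 without NES cycloheximide unlabelled 1. EEF1A1 (0.90 ± 0.21 SE), EIF1 (0.82 ± 0.18 SE), EIF2B4 (1.41 ± 0.43 SE) and EIF1AD (1.84 ± 0.50 SE) each lost their call without at least 1 library, OMM cycloheximide labelled 1 among them for all 4. For EIF1AD the OMM cycloheximide unlabelled libraries, which were of low complexity, had only 10.1 and 7.65 CPM. Over the 54 members of at least 5 CPM, Spearman's rho between coding length and the difference was -0.44, and over 10772 genes it was -0.29. A negative rho was not particular to cycloheximide. For the same difference between OMM and NES labelling it was -0.28 over the members and -0.27 over all these genes in puromycin. In CCCP it was -0.41 and -0.14.

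**Figure D4:**
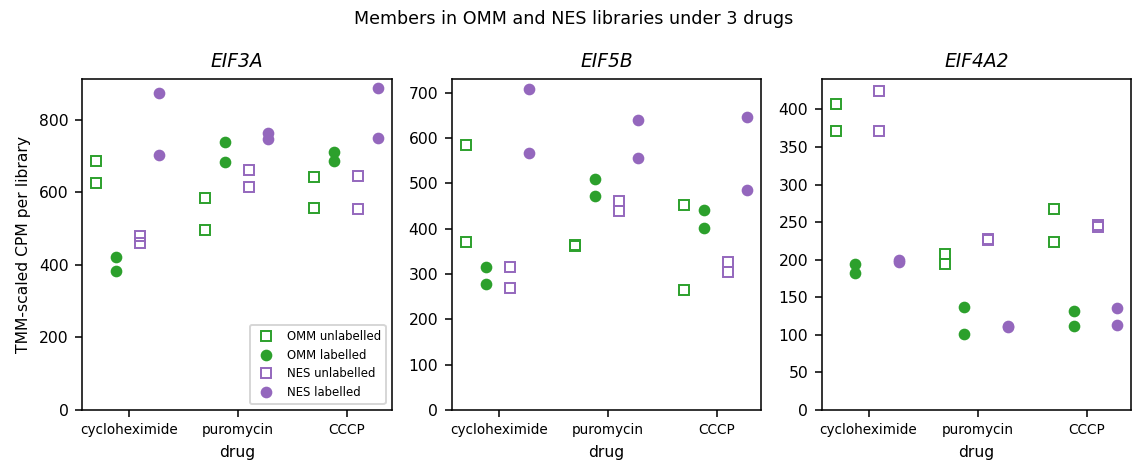
CPM of EIF3A, EIF5B and EIF4A2 in each labelled and unlabelled library of the OMM and NES lines under cycloheximide, puromycin and CCCP (1 point per library, n = 2 per group). In cycloheximide the EIF3A points of OMM labelled libraries lie below the unlabelled ones and those of NES above, while EIF4A2 labelled points lie below the unlabelled ones under every drug.

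The same OMM labelling was compared between the inhibitors. Cycloheximide against puromycin gave 1 higher and 3 lower members, where 4.51% and 1.07% of all genes were, and the count was 2 without OMM cycloheximide labelled 1, 15 without OMM cycloheximide unlabelled 1, 9 without OMM cycloheximide unlabelled 2, 2 without OMM puromycin unlabelled 1 and 1 without OMM puromycin unlabelled 2. EIF3A (-1.10 ± 0.20 SE, adjusted p = 0.059 without OMM puromycin unlabelled 2), EIF5B (-1.13 ± 0.31 SE, adjusted p = 0.12 without either OMM puromycin unlabelled library and 0.072 without OMM cycloheximide labelled 1) and EIF3D (-0.88 ± 0.19 SE, adjusted p = 0.1 without OMM puromycin unlabelled 1 and 0.085 without OMM cycloheximide labelled 2) were lower in cycloheximide. EIF1AD was higher (2.34 ± 0.50 SE), with the same low unlabelled level as above, and lost its call without any 1 of 4 of the 8 libraries. In NES labelling 0 members were called by edgeR and 8 had an unadjusted p under 0.05, DESeq2 called 0, 0.0326% of all genes were higher and 0.135% lower, and the count was 2 without NES cycloheximide unlabelled 2 and 1 without NES puromycin unlabelled 1.

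In the unlabelled libraries, cycloheximide against puromycin gave 3 higher and 2 lower members, where 3.11% and 5.23% of all genes were, and the count was 15 without OMM cycloheximide unlabelled 1, 3 without OMM puromycin unlabelled 1 and 3 without OMM puromycin unlabelled 2. EIF4A2 had 371 to 425 CPM in the 4 cycloheximide libraries, 194 to 227 CPM in the 4 puromycin libraries and 224 to 268 CPM in the 4 CCCP libraries (log2 fold change 0.88 ± 0.11 SE, edgeR adjusted p = 0.00011 for cycloheximide against puromycin). No cycloheximide library overlapped a puromycin library, and a fit of only these libraries gave adjusted p = 0.096. The drug libraries include no untreated ones, so higher here means against puromycin. Unlabelled EIF4A2 levels of untreated NES and OMM lines, given above from a separate table, span the cycloheximide range. They lie above the puromycin and CCCP ranges, and this was not tested across tables. EIF2S3L (0.81 ± 0.18 SE, adjusted p = 0.06 without OMM puromycin unlabelled 2) and EIF4G2 (0.41 ± 0.10 SE) were also higher. EIF4G3 (-0.54 ± 0.16 SE) and EIF4H (-0.39 ± 0.09 SE) were lower. EIF4G2 lost its call without any 1 of 7 of the 8 libraries, and EIF4G3 without any 1 of 3.

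EIF4A2 was also lower in labelled than in unlabelled libraries under each drug. Its log2 fold change was -1.0 in NES and -1.05 in OMM with cycloheximide, -1.03 and -0.75 with puromycin, and -0.98 and -1.02 with CCCP. In untreated cells it was -1.19 and -0.85, from a separate table. CCCP against the translation inhibitors in unlabelled libraries gave 1 higher member, EIF3I (0.45 ± 0.08 SE, adjusted p = 0.0045), and 0 lower, where 3.05% and 0.326% of all genes were. That count was 2 without NES cycloheximide unlabelled 1, 3 without NES cycloheximide unlabelled 2, 13 without OMM cycloheximide unlabelled 1, 3 without OMM cycloheximide unlabelled 2, 0 without OMM CCCP unlabelled 1, 2 without OMM CCCP unlabelled 2, 2 without NES puromycin unlabelled 1 and 0 without OMM puromycin unlabelled 1.

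Nocodazole depolymerizes microtubules. Over the 5 times in labelled libraries, edgeR called a difference between times for EIF5 and EEF2 among 57 members, where 0.852% of all genes were called. EIF5, which makes eIF2 hydrolyse its GTP at the start codon, rose in OMM labelled libraries from 337 and 407 CPM at 3 min through 415 and 403 at 6 min, 624 and 599 at 9 min and 612 and 569 at 30 min to 767 and 639 at 2 hr. In NES labelled libraries it had 287 and 263, 659 and 603, 558 and 563, 645 and 619 and 684 and 691 CPM at the same times. In NES every later library was above the 3 min libraries from 6 min on, while in OMM the 6 min libraries overlapped those of 3 min and the later ones lay above. That difference between the lines was not tested.

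Against 3 min, the mean of both lines was higher by 0.67 ± 0.11 SE at 6 min, 0.87 ± 0.11 SE at 9 min, 0.93 ± 0.11 SE at 30 min and 1.12 ± 0.11 SE at 2 hr. The adjusted p over the 5 times was 4.7e-05. EIF5 and EEF2 were both called without any 1 library and under each other alternative, and the count of members was 4 without OMM nocodazole 3 min labelled 1 and 4 without OMM nocodazole 3 min labelled 2, 17 in a fit of only these libraries and 10 with low-complexity libraries left out, each group keeping at least 1 library. The labels give no untreated library in this time course, so 3 min is the reference. In the separate table of the constructs EIF5 had 181 to 516 CPM in unlabelled libraries of untreated cells, over all 9 constructs and highest in NLS. In the matching OMM line its raw counts were 8264 and 10922 in unlabelled libraries (totals 31.25 and 34.6 M). In the NES line they were 12654 and 6933 (37.87 and 27.94 M).

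The rise of EIF5 was seen without labelling too. Unlabelled libraries had 282 and 292 CPM in OMM and 267 and 213 CPM in NES at 3 min, and 482 and 578 CPM in OMM and 481 and 606 CPM in NES at 30 min (log2 fold change 1.03 ± 0.11 SE, edgeR adjusted p = 4.5e-06). All 30 min libraries were above all 3 min libraries. The change was 0.88 ± 0.15 SE in OMM and 1.18 ± 0.15 SE in NES alone, and a fit of these 8 libraries alone gave adjusted p = 0.14. EIF3L was the other member called. It was lower (-0.54 ± 0.13 SE) and lost its call without any 1 of 5 of the 8 libraries. Among all genes 2.64% were higher and 0.734% lower, and the count of members was 10 without OMM nocodazole 3 min unlabelled 1, 1 without NES nocodazole 3 min unlabelled 2, 8 without OMM nocodazole 30 min unlabelled 1, 1 without OMM nocodazole 30 min unlabelled 2 and 8 without NES nocodazole 30 min unlabelled 1.

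**Figure D5:**
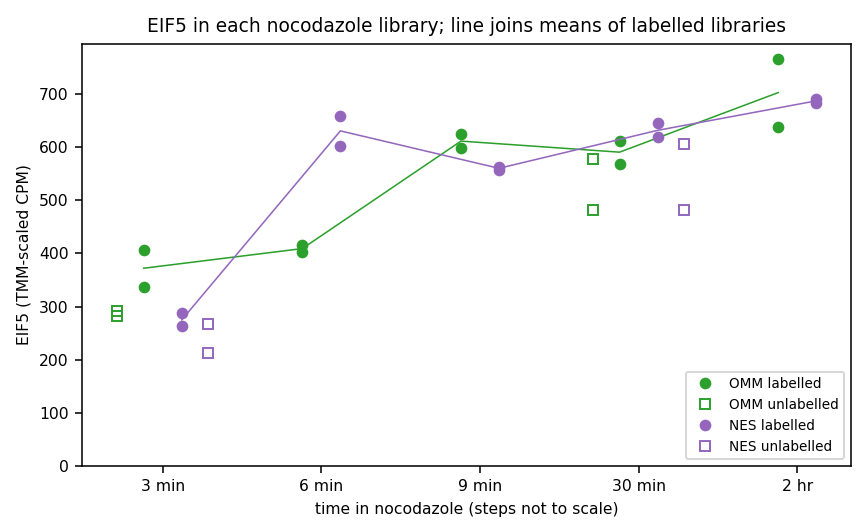
CPM of EIF5 at 3, 6, 9 and 30 min and 2 hr of nocodazole in labelled and unlabelled libraries of the OMM and NES lines (1 point per library, n = 2 per group, unlabelled at 3 and 30 min only). All points at 30 min lie above all points of the same kind at 3 min.

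EIF5 did not pass the test for OMM against NES labelling at 3 min (0.18 ± 0.21 SE, adjusted p = 0.81) or at 30 min (-0.06 ± 0.21 SE, adjusted p = 1). At 3 min 0 members were called by edgeR and 10 had an unadjusted p under 0.05, DESeq2 called 3, 3.77% of all genes were higher and 0.495% lower, and the count was 9 without OMM nocodazole 3 min unlabelled 1, 5 without OMM nocodazole 3 min unlabelled 2, 1 without NES nocodazole 3 min unlabelled 1 and 1 without NES nocodazole 3 min unlabelled 2. Both OMM nocodazole 3 min unlabelled libraries were of low complexity, with 11.6% and 13.5% of well-expressed genes lacking a count. With low-complexity libraries left out except the better of these, unlabelled 1, the count was 9. At 30 min EIF5B was lower in OMM (-1.19 ± 0.27 SE, adjusted p = 0.047), where 0.0102% of all genes were lower and 0.449% higher. The count was 4 without OMM nocodazole 30 min unlabelled 1, 3 without NES nocodazole 30 min unlabelled 1 and 0 without any 1 of the other 6 libraries. EEF2, the other member that differed between times, had 2671 to 3334 CPM at 3 min, 2858 to 4066 at 6 min, 1805 to 2838 at 9 min, 2450.2 to 2562 at 30 min and 2118 to 2909 at 2 hr over the 4 labelled libraries of each time (adjusted p = 0.0019). These ranges overlap between neighbouring times, except between 6 and 9 min.

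Genes that regulate or assist the factors were taken from a list of partner genes, of which 34 were tested. In ERM labelling 2 were higher and 5 lower, where 5.23% of all genes were higher and 7.64% lower. In NLS labelling the counts were 0 and 1 (2.79% and 2.45% of all genes), in LMA 2 and 4 (3.68% and 4.03%), in NES 1 and 2 (1.37% and 2.47%) and in OMM 3 and 0 (2.99% and 1.97%). In the nuclear fraction 3 were higher and 17 lower, against 34.2% and 27.9% of all genes. PPP1R15B, which directs dephosphorylation of eIF2, was higher at the ER membrane (1.62 ± 0.23 SE), and MCTS1, a reinitiation factor, was lower (-2.31 ± 0.30 SE). LARP1, the TOP-binding protein, was higher in NES (1.11 ± 0.18 SE) and ERM labelling (0.82 ± 0.18 SE) and in the nuclear fraction (0.63 ± 0.19 SE), as EIF4G1 was. EIF2AK3, the ER stress kinase of eIF2, was higher in the nuclear fraction (1.21 ± 0.25 SE), and ETF1, the release factor, was lower (-1.40 ± 0.16 SE).

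Of 8 mitochondrial counterparts of the factors, whose proteins are imported, 3 were higher and 1 lower in OMM labelling, where 2.99% and 1.97% of all genes were. The higher ones were GFM2, which recycles mitochondrial ribosomes (2.67 ± 0.32 SE), the elongation factor GFM1 (1.78 ± 0.22 SE) and the initiation factor MTIF2 (1.41 ± 0.40 SE). The lower one was TSFM (-1.66 ± 0.33 SE). Raw counts of MTIF2 were 4516 and 5314 in OMM labelled and 3378 and 724 in OMM unlabelled libraries. Those of TSFM were 632 and 994 against 1846 and 3911. Both calls lean on OMM unlabelled 2, a low-complexity library with 3.95% of well-expressed genes lacking a count. Calls of these counterparts were not checked with a library left out. With cycloheximide 4 of 8 were higher in OMM than in NES labelling, where 9.32% of all genes were: GFM1 (4.07 ± 0.30 SE), GFM2 (3.92 ± 0.34 SE), TUFM (3.60 ± 0.26 SE) and MTIF2 (3.21 ± 0.28 SE). The same 4 were higher in OMM labelling with cycloheximide than with puromycin, where 4.51% of all genes were, by 3.4 ± 0.30, 3.49 ± 0.34, 2.14 ± 0.26 and 3.01 ± 0.28 SE. In that comparison of the drugs in OMM 4 of 57 cytosolic members were called.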

How the data were processed

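RNA of HEK293T cells was measured in 97 libraries of 49 groups, defined by the labels. The deposited values are raw counts per gene; per the submitters' processing notes the authors used Trimmomatic, STAR, HTSeq, SAMtools and bedtools on GRCh38 (hg38), with versions and settings not given in the sources used here. Libraries were stranded, per the labels' protocols. DESeq2 made the log2 fold changes and p-values that the authors deposited, per the submitters' processing notes. Their headers do not say whether the p-values are adjusted, and these tables gave only gene names here.

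Each of 5 count tables was fitted alone in R 4.3.3 with edgeR 4.0.16 (TMM, default filter on low counts, trended dispersion, 1 model of group means, quasi-likelihood F test). Over all genes of each of 25 comparisons, p-values were Benjamini-Hochberg adjusted, and members were called under 0.05. Standard errors were taken as the size of the log2 fold change divided by the root of F. A technical repeat of 1 MITO library was left out. CPM values are counts scaled to TMM-adjusted library sizes. The fit was tested on simulated data.

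All members could be named. In each comparison up to 6 of the largest called rises and 6 of the largest called falls with a mean of at least 5 CPM were named, and EIF5 in the nocodazole comparisons. Members and gene lists were chosen with earlier results of these data known. Coding lengths and overlaps came from GENCODE 29, starts from RefSeq on GRCh38.p14.

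Alternatives were RLE size factors, no filter, DESeq2 1.42.0, a replicate block, only the libraries of a comparison, each library left out, and, chosen after seeing the data, leaving out libraries of low complexity (1 library of each group was always kept) and keeping the technical repeat. With 2 libraries a group the precision rests on the spread pooled over a table.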

Additional observations from a re-analysis of the deposited data

Results flagged for a closer look

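Members whose labelling differed between places or drugs, by a test of the difference itself, were listed for a closer look. They numbered 4 for ERM against NES labelling, led by EIF3G (-1.64 ± 0.31 SE on the log2 scale). They numbered 6 for NLS against NES labelling, with EIF4A2 highest (2.27 ± 0.31 SE) and EEF2 lowest (-1.54 ± 0.34 SE). In cycloheximide 12 differed between OMM and NES labelling, from EIF5B (-1.82 ± 0.31 SE) to EEF1B2 (1.87 ± 0.34 SE). Between cycloheximide and puromycin 4 differed in OMM labelling, with EIF1AD highest (2.34 ± 0.50 SE). At 30 min of nocodazole 1 differed between OMM and NES labelling, EIF5B (-1.19 ± 0.27 SE).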

How the results depend on the processing

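The number of members called was computed for 25 comparisons and recomputed under each alternative that applied: only the libraries of a comparison for 24 (the fraction table holds no others), libraries of low complexity left out for the 19 whose groups lost a library, the technical repeat for 1 and the others for all 25. No named member reversed its direction: of 93 named values 91 were called, and 32 were called under every alternative run. Of 1044 alternative values 172 were no longer called. RLE size factors kept 24 of 25 counts within 1.5 times the main count and gave 1 for OMM against NES labelling at 3 min. DESeq2 kept 15 of 25 and gave 6 for MITO, 7 for ERM against NES labelling, 1 for OMM against NES labelling, 2 for MITO total RNA, 4 for OMM against NES labelling in puromycin, 3 for CCCP against the inhibitors, 9 for cycloheximide against puromycin in OMM labelling, 5 for the 5 nocodazole times, 3 for OMM against NES labelling at 3 min and 2 for OMM against NES labelling at 30 min. With no filter on low counts 14 of 25 stayed within that range, and the others were 9 for ERM against NES labelling, 1 for OMM against NES labelling, 3 for MITO total RNA, 2 for OMM against NES labelling in puromycin, 1 for OMM against NES labelling in CCCP, 8 for cycloheximide against puromycin in unlabelled libraries, 4 for CCCP against the inhibitors, 8 for cycloheximide against puromycin in OMM labelling, 1 for cycloheximide against puromycin in NES labelling, 7 for the 5 nocodazole times and 1 for OMM against NES labelling at 3 min.

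With only the libraries of a comparison in the fit, which leaves fewer libraries to estimate the spread, the counts were 28 for NLS, 0 for NIK, 0 for NES, 3 for OMM, 0 for MITO, 0 for ERM against NES labelling, 4 for OMM against NES labelling in cycloheximide, 1 for OMM against NES labelling in puromycin, 0 for cycloheximide against puromycin in unlabelled libraries, 0 for CCCP against the inhibitors, 0 for 30 against 3 min of nocodazole in unlabelled libraries, 17 for the 5 nocodazole times and 0 for OMM against NES labelling at 30 min. Low-complexity libraries were left out in an alternative chosen after seeing the data. Where both libraries of a group were of low complexity the less affected was kept: NIK labelled 2, OMM cycloheximide unlabelled 1, OMM nocodazole 3 min unlabelled 1 and OMM nocodazole 30 min unlabelled 1. The counts were then 18 for NIK, 2 for OMM against NES labelling, 12 for NLS against NES labelling, 8 for cycloheximide against puromycin in unlabelled libraries, 3 for CCCP against the inhibitors, 9 for cycloheximide against puromycin in OMM labelling, 1 for cycloheximide against puromycin in NES labelling, 10 for the 5 nocodazole times and 9 for OMM against NES labelling at 3 min. Keeping the technical repeat of a MITO library, also chosen after seeing the data, left 0 members called in MITO total RNA.

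Replicate numbers shared between groups did not pair the libraries: over 153 pairs of construct groups the median correlation of same-numbered deviations was 0.00405, and 2 exceeded 0.1. Of 66 pairs of drug groups 1 exceeded 0.1, and none of 6 MITO or 91 nocodazole pairs did. The 1 pair in the fractions had 0.121, too few pairs to call them paired. A replicate block moved 1 count beyond 1.5 times, that of OMM against NES labelling at 30 min, to 0.

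Leaving out 1 library at a time gave counts of 8 to 14 for NLS, 4 to 11 for NIK, 13 to 18 for LMA, 0 to 1 for NucPore, 4 to 14 for NES, 21 to 24 for ERM, 0 to 0 for KDEL, 3 to 14 for OMM, 2 to 6 for MITO, 4 to 15 for ERM against NES labelling, 0 to 5 for OMM against NES labelling, 6 to 9 for NLS against NES labelling, 0 to 2 for MITO total RNA, 40 to 45 for the nuclear against the cytosol fraction, 7 to 22 for OMM against NES labelling in cycloheximide, 0 to 2 for OMM against NES labelling in puromycin, 0 to 0 for OMM against NES labelling in CCCP, 3 to 15 for cycloheximide against puromycin in unlabelled libraries, 0 to 13 for CCCP against the inhibitors, 1 to 15 for cycloheximide against puromycin in OMM labelling, 0 to 2 for cycloheximide against puromycin in NES labelling, 1 to 10 for 30 against 3 min of nocodazole in unlabelled libraries, 2 to 4 for the 5 nocodazole times, 0 to 9 for OMM against NES labelling at 3 min and 0 to 4 for OMM against NES labelling at 30 min. A library left alone in its group was taken to vary like the other groups. With 2 libraries a group, counts of a few called members are the least certain, and transcripts near 0 CPM, such as EEF1G and EIF4EBP3, have imprecise values at this depth.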
